A study of Mus musculus with 6 samples.

Results

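The microRNAs described here are mmu-miR-99a, mmu-miR-99b and mmu-miR-100, which share one seed, and both arms of the miR-125a and miR-125b hairpins (mmu-miR-125a-5p, mmu-miR-125a-3p, mmu-miR-125b-5p and mmu-miR-125b-3p). They were chosen by assay name from the table of raw threshold cycles, because their genes lie beside let-7 genes in shared clusters. All 7 assays were found among the 381 of the card, and all 7 were among the 281 microRNAs with a threshold cycle (Ct) below 35 in every library, which were the ones tested. The rule used no measured value, but it was set with earlier results of these data known.
Each library came from the right dentate gyrus, the part of the hippocampus where neurons are born in adult life, of 1 male C57/Black6J mouse of 6 to 8 weeks of age. Saline was injected in 3 mice. Repeated low doses of kainic acid, a glutamate receptor agonist, were injected in 3 others to induce status epilepticus (KA-SE), and all tissue was taken 72 h later. Per the methods, mice entered the KA-SE group only after scored, lasting seizures, and the tissue was micro-dissected, so that it held neurons, glia and vessels together. A TaqMan card read each assay in each mouse once. Its Ct is the cycle of the PCR at which product becomes measurable, and RNA that is more abundant reaches it sooner. A Ct carries no read depth, and the number of mice limits the precision.
MicroRNAs pair with target mRNAs mainly through their seed, bases 2 to 8, and lower the translation and stability of those mRNAs. The family of miR-99 and miR-100 is known for targeting mTOR and the IGF1 receptor. The miR-125 family is the vertebrate relative of lin-4 of Caenorhabditis elegans, and like let-7 it targets Lin28, whose protein in turn blocks the maturation of let-7 precursors. Both families and let-7 are abundant in differentiated brain tissue, and miR-125b has been linked to neuronal differentiation and to dendritic spine shape.

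The mature sequences are shown because they set the families apart and because near-identical ones bear on what each assay can tell apart. They are RefSeq sequences of mouse build GRCm38.p6, 5′ to 3′, with the seed in capitals. The names miR-99a, miR-99b, miR-100 and let-7 on the card carry no arm and were read as the 5p arm.
miR-99a: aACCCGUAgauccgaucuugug
miR-100: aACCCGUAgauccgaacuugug
miR-99b: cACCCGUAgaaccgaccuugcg
miR-125a-5p: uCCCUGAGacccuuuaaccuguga
miR-125b-5p: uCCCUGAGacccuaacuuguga
miR-125a-3p: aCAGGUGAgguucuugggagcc
miR-125b-1-3p: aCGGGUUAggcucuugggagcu
miR-125b-2-3p: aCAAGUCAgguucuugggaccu
let-7a: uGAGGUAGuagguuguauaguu
let-7c: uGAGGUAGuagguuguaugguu
let-7e: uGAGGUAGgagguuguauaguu
Counted from 1 at the 5′ end, miR-100 differs from miR-99a by U16A alone, while miR-99b differs from miR-99a by A1C, U11A, U16C and U21C. The seed of miR-99a was found in 3 of 1679 mature mouse sequences of the RefSeq table, all of this family. That of miR-125a-5p and miR-125b-5p was found in 5, namely these 2, miR-351-5p, miR-6367 and miR-6394. The 5p arms of miR-125a and miR-125b are identical over their first 13 bases. The 3p arms have seeds that no other mature sequence in the table shares. The card names 1 assay miR-125b-3p and does not say which of the hairpins it reads, so both candidate sequences are printed. Cross-reading between miR-99a and miR-100 was not tested. G and C make up 50.0% to 63.6% of the bases of the sequences printed for the miR-99 and miR-125 families, and 36.4% to 40.9% for the 3 let-7 microRNAs.
The genes form 3 clusters, in each of which a gene of miR-99a, miR-99b or miR-100 is followed by a let-7 gene and a miR-125 gene on the same strand. In GRCm38.p6 the cluster on chromosome 17 is the tightest and lies within the span of the protein-coding gene Spaca6. There Mir99b is followed by Mirlet7e after 95 bases and by Mir125a after a further 368 bases. On chromosome 9 Mir100, Mirlet7a-2 and Mir125b-1 lie within the span of the lncRNA gene Mir100hg, with gaps of 5.2 kb and 45.1 kb. On chromosome 16 Mir99a, Mirlet7c-1 and Mir125b-2 are separated by 0.7 kb and 46.5 kb and lie within no other gene of the table. By name, miR-99a, miR-99b, miR-100, miR-125a and let-7e each have 1 gene, and miR-125b, let-7a and let-7c have 2 each. In the chromosome 17 cluster, then, each microRNA comes from 1 gene, which matters where partners are compared.
The hairpin of Mir125a, at chr17:17830812-17830879 on the plus strand, shows how both arms lie in one precursor, with the 5p and then the 3p arm in capitals.
Mir125a: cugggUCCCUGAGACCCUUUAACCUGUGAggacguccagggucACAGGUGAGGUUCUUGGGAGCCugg

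Of the whole card, the points that touch these microRNAs are as follows. U6, the small nuclear RNA used as reference, had a Ct of 12.8 to 13.9 in the 6 libraries. The mean microRNA came 11.8 cycles after U6 in saline replicate 2 and 9.96 to 10.2 cycles after U6 in the other 5 libraries. This library therefore stands apart, and results are given with and without it. The 6 neuronal microRNAs listed as tissue markers (miR-9, miR-124, miR-128a, miR-137, miR-138 and miR-218) had mean Ct values of 15.1 to 20.1. Markers of oligodendrocytes, endothelium, vessel wall, choroid plexus, erythrocytes, and leukocytes and microglia were also detected, at mean Ct values of 17.1 to 27.9. Of these 13 markers, each was tested and none was called, and their part in the results was not tested. In such tissue fewer cells of a type and less RNA per cell cannot be told apart.

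Among the 5p arms, miR-125b-5p came up earliest. Its raw Ct was 15.8, 17.0 and 15.9 in saline replicates 1, 2 and 3 and 15.7, 16.2 and 16.4 in KA-SE replicates 1, 2 and 3, which placed it at rank 6 of 281 by mean Ct. miR-99a, miR-100, miR-99b and miR-125a-5p followed in a narrow band, at ranks 30 (miR-99a), 33 (miR-100), 36 (miR-99b) and 40 (miR-125a-5p). Within a library, miR-99a came 2.49 ± 0.27 cycles (SD, n = 6 libraries) after miR-125b-5p and was later in all 6. The neighbours miR-99a, miR-100 and miR-99b did not keep one order across libraries, with miR-100 later than miR-99a in 4 of 6 and miR-99b later than miR-100 in 5 of 6. miR-125a-5p was later than miR-99b in 6 of 6 libraries, by 0.290 ± 0.17 cycles (SD). Assays can differ in efficiency, and the order is one of signals rather than of copies.
The 3p arms, the strands that are mostly discarded when the hairpin is processed, came up far later. miR-125b-3p was at rank 238 and miR-125a-3p at rank 243, with mean Ct values of 27.6 and 28.0. The 3p arm of miR-125b came 8.41 ± 0.47 cycles (SD, n = 6 libraries) after miR-125a-5p, the latest of the 5p arms. The 3p arms did not keep one order between themselves, miR-125a-3p being the later in 4 of 6 libraries.

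None of the 7 microRNAs was called between KA-SE and saline mice by limma, where a call takes a fold change of 1.5 or more and an adjusted p below 0.05. This call was made for 0 of all 281 microRNAs, or 0%, and at an unadjusted p under 0.05 for 0 of the 7 and for 8 of 281, or 2.85%. Levels were taken over U6, by subtracting the microRNA's Ct from that of U6 within the library, and count as log2 values where PCR doubles its product at every cycle. Log2 fold changes of KA-SE over saline ran from -0.06 for miR-125b-5p to 0.53 for miR-125b-3p, with a median of 0.22. Over all 281 microRNAs the median was 0.62, and 245 were above 0, or 87.2%, against 6 of these 7. With saline and KA-SE ranges over U6 compared, 0 of the 7 did not overlap, against 58 of 281, or 20.6%, of which 54 were higher (19.2%) and 4 lower (1.42%) after KA-SE.

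**Figure D1:**
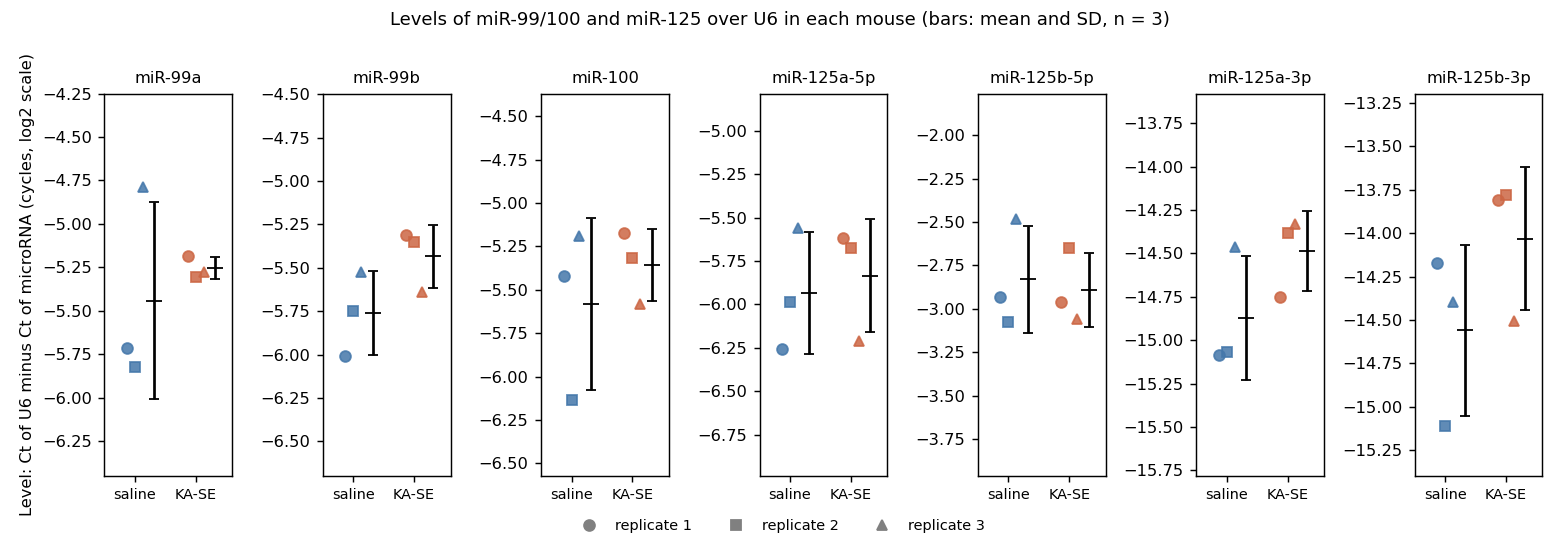
Level of each microRNA over U6 (vertical axis, cycles on a log2 scale, the same 2.2-cycle span in each panel) in the 3 saline and 3 KA-SE mice, with mean and SD. The groups overlap in all 7 panels, and the 3 KA-SE values of miR-99a, from -5.31 to -5.18, lie between its saline values.

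Over U6, the level of miR-99a was -5.71, -5.83 and -4.79 in saline replicates 1, 2 and 3, and -5.18, -5.31 and -5.28 in KA-SE replicates 1, 2 and 3. The KA-SE mice lay together, with an SD of 0.064, inside a saline range set by replicate 3 at its top. The log2 fold change was 0.19 (standard error 0.45, limma adjusted p = 0.805), with a 95% interval from -0.87 to 1.25.
miR-100, which differs from miR-99a by a single base, had levels of -5.42, -6.14 and -5.19 in saline mice, and of -5.17, -5.32 and -5.58 after KA-SE. Here saline replicate 2 was the lowest and the other saline mice lay among the KA-SE mice. The log2 fold change was 0.22 (standard error 0.44, limma adjusted p = 0.770).
miR-99b, the family member of the chromosome 17 cluster, read -6.01, -5.75 and -5.52 in saline mice and -5.31, -5.35 and -5.64 after KA-SE. KA-SE replicates 1 and 2 lay above all saline mice and KA-SE replicate 3 did not. The log2 fold change was 0.32 (standard error 0.40, limma adjusted p = 0.671).
miR-99b was also the member whose groups separated against other controls. Against snoRNA135 and snoRNA202, small nucleolar RNAs whose mean Ct was used, its level averaged -1.53 ± 0.044 (SD, n = 3) with saline and -1.32 ± 0.062 (SD, n = 3) after KA-SE. All values after KA-SE exceeded all saline values on that scale, with a log2 fold change of 0.22 (limma adjusted p = 0.701). It was the 1 of the 7 without overlap there, against 49 of 281 in either direction (17.4%), 41 of them higher (14.6%). At an unadjusted p under 0.05 the snoRNA scale gave 0 of the 7 and 3 of 281, or 1.07%.
For miR-125a-5p the levels over U6 were -6.26, -5.99 and -5.56 in saline mice, then -5.62, -5.68 and -6.21 in KA-SE mice. The groups covered nearly the same range. The log2 fold change was 0.10 (standard error 0.43, limma adjusted p = 0.901).
miR-125b-5p stood at -2.93, -3.08 and -2.48 in saline mice, and at -2.96, -2.65 and -3.06 after KA-SE. Its KA-SE values all fell inside the saline range, and it was the only one of the 7 with a negative log2 fold change over U6, -0.06 (standard error 0.41, limma adjusted p = 0.930), with a 95% interval from -1.03 to 0.91.
Over U6 with all 6 libraries, the 3p arms had larger log2 fold changes than the 5p arms, whereas without saline replicate 2 that of miR-99b was larger, at 0.33. miR-125a-3p stood at -15.08, -15.07 and -14.46 in saline mice, and at -14.75, -14.38 and -14.33 after KA-SE, with 2 KA-SE mice above all saline mice. Its log2 fold change was 0.39 (standard error 0.42, limma adjusted p = 0.639). miR-125b-3p stood at -14.17, -15.11 and -14.40 in saline mice, and at -13.81, -13.78 and -14.51 after KA-SE, again with 2 above all saline mice. Its log2 fold change was 0.53 (standard error 0.47, limma adjusted p = 0.612).

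The size and the sign of these values turned on saline replicate 2 and on the reference. Without saline replicate 2 the log2 fold changes over U6 ran from -0.18 to 0.33 with a median of 0.07, and 4 of 7 were above 0, against 62.6% of all microRNAs. At an unadjusted p under 0.05 that fit gave 0 of the 7 and 24 of 281, or 8.54%. Without saline replicate 3 instead, miR-99a, miR-99b and miR-125a-3p lay above all saline values, 3 of the 7, where 148 of 281 microRNAs did not overlap, or 52.7%. When each library was centred on the global mean of its 281 microRNAs, the log2 fold changes of all 7 were below 0, from -0.71 for miR-125b-5p to -0.13 for miR-125b-3p with a median of -0.43. On that scale 129 of 281, or 45.9%, were above 0, and the median over all was -0.04. None of the 7 was called or separated relative to the global mean either, where 70 of 281, or 24.9%, did not overlap, 36 of them higher (12.8%) and 34 lower (12.1%).

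**Figure D2:**
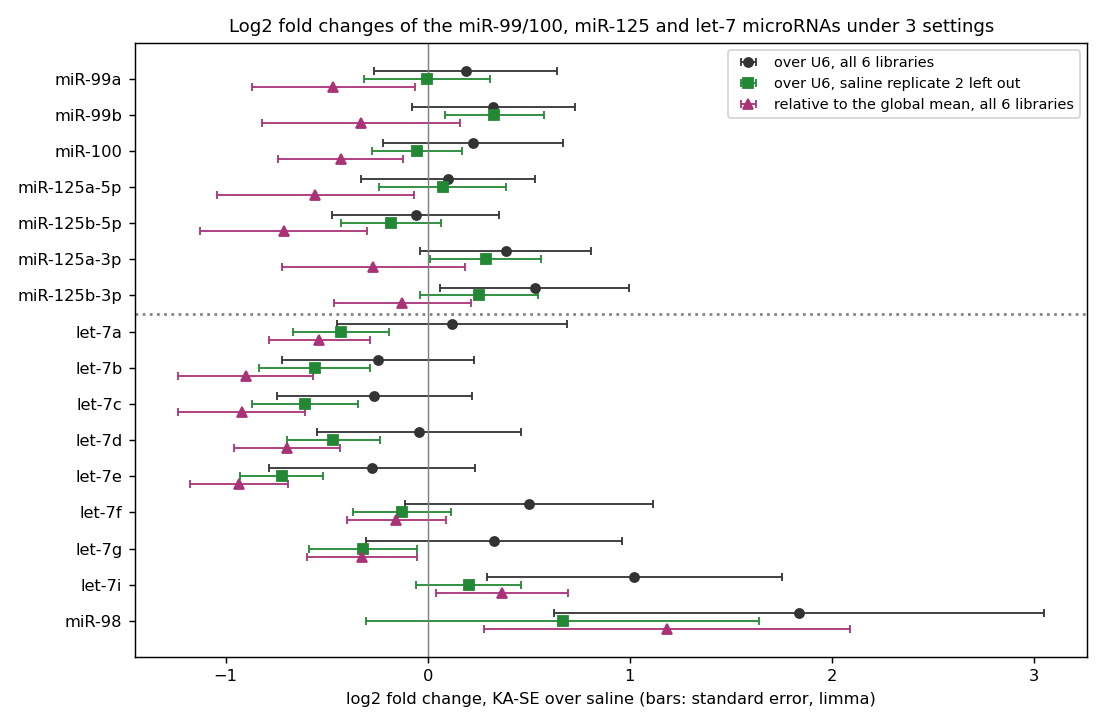
Log2 fold change of KA-SE over saline (horizontal axis, bars are limma standard errors) for the 7 microRNAs and the 9 of the let-7 family under 3 settings. For the 7, values relative to the global mean lie left of those over U6, while let-7b, let-7c, let-7d and let-7e are below 0 under all 3 settings. With no library left out, the shift from U6 to the global mean is the same for every microRNA.

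These microRNAs were delayed less in saline replicate 2 than most others were. The Ct there minus the mean Ct of saline replicates 1 and 3 was 0.714 cycles for miR-99b, 0.805 for miR-125a-5p, 1.03 for miR-125a-3p, 1.098 for miR-125b-5p, 1.30 for miR-99a, and 1.56 for both miR-100 and miR-125b-3p. Ordered from the smallest delay, they took ranks from 11 for miR-99b to 74 for miR-100 among the 281 microRNAs, whose median delay was 2.23 cycles with quartiles of 1.53 and 3.19. The 5 control RNAs U6, snoRNA135, snoRNA202, U87 and Y1 were delayed by 0.603 to 0.861 cycles, so that miR-99b and miR-125a-5p lay within the range of the controls.
The let-7 family, from the same and other clusters, was delayed more, by 1.67 cycles for let-7b to 4.24 cycles for miR-98. In the chromosome 17 cluster let-7e was delayed by 2.07 cycles, between miR-99b and miR-125a-5p in the genome and behind both in the delay. What set the delay of each assay was not tested.
On the U6 scale the 7 varied less over saline mice than most microRNAs did. Their SDs over the 3 saline mice ran from 0.242 to 0.568 with a median of 0.356, against a median of 0.982 over all 281 microRNAs and 0.984 over the let-7 family. These SDs include saline replicate 2, and are not a trait apart from its delay. For example, miR-99b was at rank 10 by SD and 11 by delay, and miR-100 at ranks 55 and 74. Over the 3 KA-SE mice the median SD was 0.214 for the 7 and 0.198 for all.

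**Figure D3:**
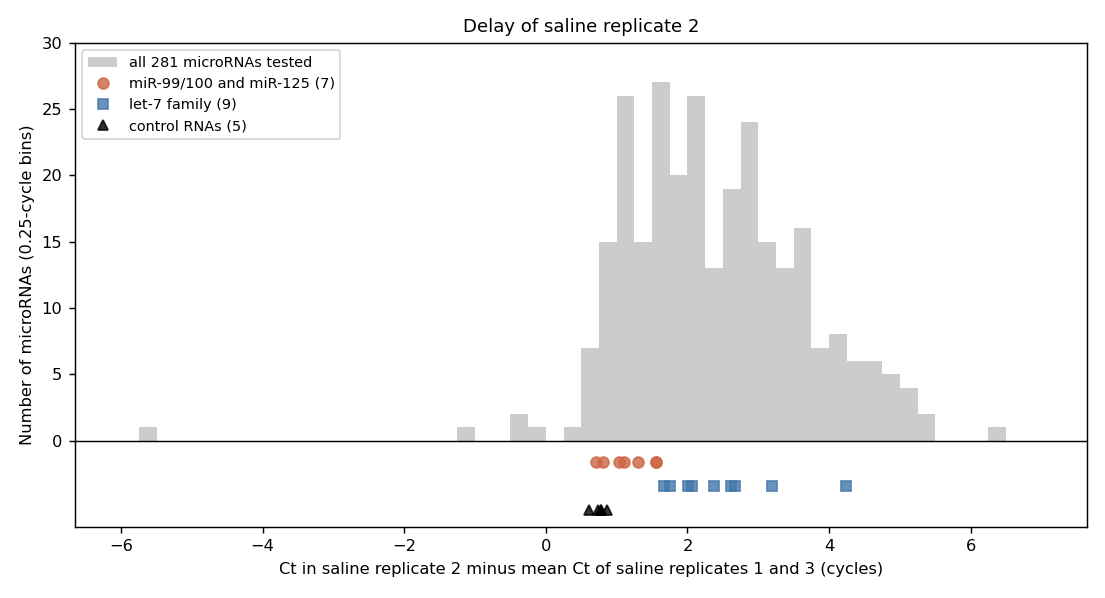
Number of microRNAs by the delay of saline replicate 2 (horizontal axis, Ct minus the mean Ct of saline replicates 1 and 3, in cycles), with the 7 microRNAs, the let-7 family and the control RNAs marked under the histogram. The 7 lie from 0.714 to 1.56 cycles, all below the let-7 family, with miR-99b and miR-125a-5p inside the range of the controls.

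Partners of one cluster can be compared within a library with no reference RNA, by subtracting one Ct from the other. This was done for 15 pairs, of which 9 were cluster partners, 2 were arms of one hairpin and 4 were relatives of one seed. Saline and KA-SE ranges were apart for 1 of 15 pairs, against 9384 of 39340 pairs of tested microRNAs, or 23.9%. With 3 mice against 3 the smallest p of the two-sided exact permutation test is 0.1, and the smallest p adjusted over the 15 pairs was 0.75.
The separated pair was miR-99b and miR-125a-5p, the outer genes of the chromosome 17 cluster. The Ct of miR-99b minus that of miR-125a-5p was -0.255, -0.238 and -0.039 cycles in saline and -0.309, -0.329 and -0.569 cycles in KA-SE mice. The shift was -0.225 cycles, miR-99b being the earlier by more after KA-SE (exact permutation p = 0.1), and it was -0.142 cycles without KA-SE replicate 3. In the authors' deposited normalized table it was -0.005 cycles and the groups overlapped. Over the 6 libraries this difference had an SD of 0.171 cycles, the smallest among the 21 pairs of the 7, whose median was 0.288 cycles. Over all pairs of tested mouse microRNAs the median SD was 0.720 cycles.
The middle gene of that cluster varied differently. The Ct of miR-99b minus that of let-7e was 3.10, 1.64 and 2.88 cycles with saline and 1.79, 1.99 and 2.02 cycles after KA-SE. Saline replicate 2 lay below the KA-SE mice and the other saline mice above them. The difference between the group means was -0.602 cycles (exact permutation p = 0.4). It was -1.05 cycles without saline replicate 2, -0.322 cycles without saline replicate 1 and -0.320 cycles in the authors' deposited normalized table. The Ct of let-7e minus that of miR-125a-5p was likewise -3.35, -1.87 and -2.92 cycles in saline and -2.10, -2.32 and -2.59 cycles in KA-SE mice, a shift of 0.377 cycles with all 6 libraries (exact permutation p = 0.5), 0.798 cycles without saline replicate 2 and 0.0578 cycles without saline replicate 1.
The other clusters showed a like arrangement with smaller values, but there let-7a, let-7c and miR-125b-5p each come from 2 genes. The Ct of miR-99a minus that of let-7c was 2.48, 1.88 and 2.19 cycles in saline and 1.496, 1.923 and 1.776 cycles in KA-SE mice (difference -0.452 cycles, exact permutation p = 0.2). The Ct of miR-100 minus that of let-7a was 0.692, 0.010 and 0.961 cycles in saline and 0.163, 0.560 and 0.624 cycles in KA-SE mice (difference -0.105 cycles, exact permutation p = 0.8). In both, saline replicates 1 and 3 lay above all KA-SE mice and saline replicate 2 did not.
Of the 6 pairs in which one partner is a let-7 microRNA, let-7 came later relative to its partner after KA-SE in 5 with all 6 libraries. Without saline replicate 2 it came later in 6 of 6, by 0.249 cycles for let-7a against miR-125b-5p to 1.05 cycles for let-7e against miR-99b, and all 6 did not overlap. Without that library 8 of the 15 pairs did not overlap, against 13205 of 39340 pairs, or 33.6%. With each other library left out, let-7 came later in 4 or 5 of the 6 pairs, and in the authors' deposited normalized table in 3 of 6. The pair that went the other way with all 6 libraries, let-7a minus miR-125b-5p (-0.178 cycles), was at -0.576 cycles in that table. Its groups did not overlap there (exact permutation p = 0.1). The offset of miR-125b-5p from raw Ct in that table, set against U6, differed between the groups, as did those of miR-99a and miR-99b. The pairs share microRNAs and mice, and are not independent of one another.

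**Figure D4:**
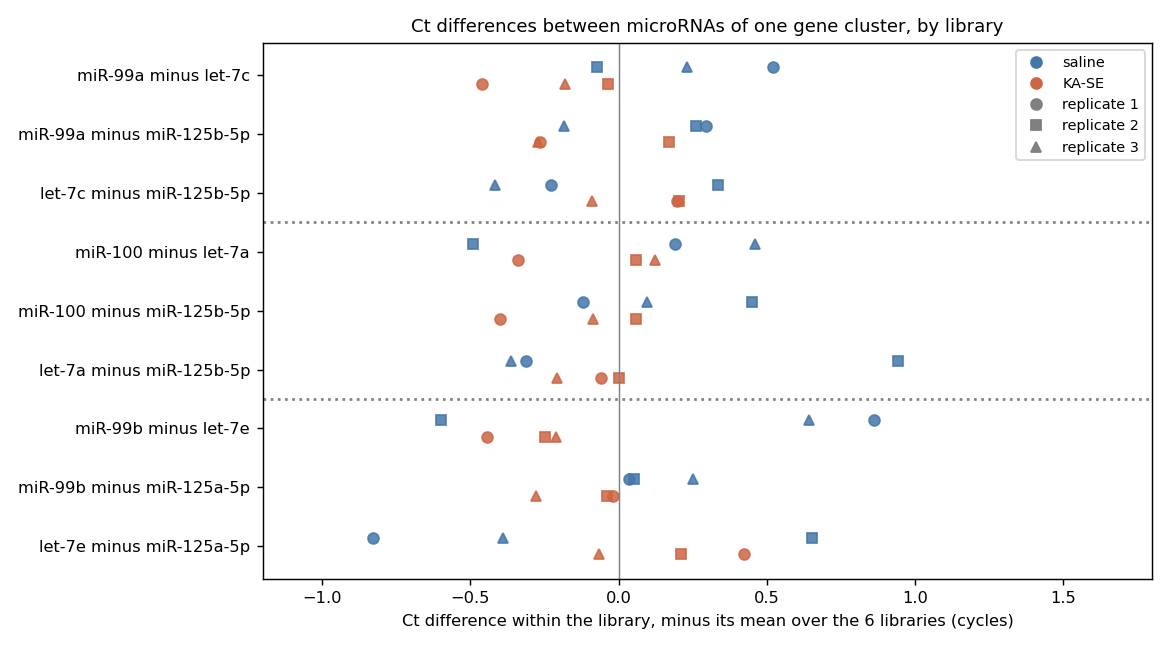
Ct of one microRNA minus that of a partner of its cluster in each library (horizontal axis, cycles, centred on the mean of the 6 libraries), by group and replicate. The pair miR-99b minus miR-125a-5p separates the groups. In pairs with let-7, saline replicate 2 (blue square) lies on the other side of the KA-SE mice from saline replicates 1 and 3, except for miR-99a minus let-7c, where it lies beside KA-SE replicate 2.

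Among the 7, relatives of one seed and arms of one hairpin overlapped between the groups when raw Ct of all 6 libraries was used. miR-351, which shares the seed of the miR-125 5p arms, was not among the pairs. Without saline replicate 2, miR-99b minus miR-100 did not overlap. In the authors' deposited normalized table, miR-125a-5p minus miR-125b-5p (difference -0.454 cycles) and the arms of miR-125b (1.048 cycles) did not overlap. Both were at the smallest exact permutation p of 0.1. Both hold miR-125b-5p, whose offset from raw Ct in that table, set against U6, differed between the groups. Offsets of other assays, miR-99a and miR-99b among them, differed too. For miR-99a minus miR-100 the Ct difference was -0.139 ± 0.38 cycles (SD, n = 3) in saline and -0.102 ± 0.18 cycles (SD, n = 3) in KA-SE mice (exact permutation p = 0.8). For miR-125a-5p minus miR-125b-5p it was 3.11 ± 0.21 and 2.95 ± 0.26 cycles (SD, n = 3 each, exact permutation p = 0.5). The Ct of the 5p arm of miR-125b minus that of its 3p arm was -11.24, -12.04 and -11.91 cycles with saline and -10.85, -11.13 and -11.45 cycles after KA-SE. The group means differed by 0.587 cycles (exact permutation p = 0.2), and KA-SE replicate 3 lay among the saline mice. For the arms of miR-125a it was -8.82, -9.08 and -8.90 cycles with saline, and -9.13, -8.70 and -8.12 cycles after KA-SE (difference 0.286 cycles, exact permutation p = 0.5). That difference was 0.0195 cycles without KA-SE replicate 3 and 0.525 cycles without KA-SE replicate 1.

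The let-7 family, of which only let-7a, let-7c and let-7e have genes in these clusters, held 0 of 9 called over U6. There 0 were separated and 5 were above 0, with a median of 0.12. let-7e was at -0.28 (standard error 0.51), let-7c at -0.26 (standard error 0.48) and let-7a at 0.12 (standard error 0.57). Without saline replicate 2 the median was -0.43 and 5 of 9 lay below all saline values, namely let-7a, let-7b, let-7c, let-7d and let-7e, against 25 of 281 microRNAs, or 8.9%. None of the 9 passed the adjusted test there (smallest limma adjusted p = 0.429, for let-7e). With the same library left out, 0 of the 7 were separated, against 80 of 281 in either direction, or 28.5%. Relative to the global mean with all 6 libraries, the same 5 of the let-7 family also lay below all saline values, against 34 of 281, or 12.1%. On that scale 4 of the 9 had an unadjusted p under 0.05, against 25 of 281, or 8.9%. None was called there (smallest limma adjusted p = 0.464).
The 3 mouse microRNAs whose Ct stayed closest to each of the 7, by the SD of the Ct difference over the 6 libraries, were not of their clusters. For miR-125b-5p they were miR-129-3p (SD 0.060 cycles), miR-150 (0.079) and miR-676 (0.122), and for miR-125a-5p miR-193b (0.116), miR-582-3p (0.123) and miR-667 (0.157). For miR-99b they were miR-151-3p (0.106), miR-193b (0.153) and miR-434-3p (0.158), for miR-99a miR-666-5p (0.131), miR-484 (0.137) and miR-134 (0.145), and for miR-100 miR-331-3p (0.1002), miR-382 (0.110) and miR-425 (0.123). miR-125a-3p was nearest to miR-92a (0.087), miR-320 (0.104) and miR-139-5p (0.122), and miR-125b-3p to miR-139-3p (0.226), miR-133a (0.247) and miR-382 (0.249). Among 261 microRNAs compared, miR-99b was the 4th nearest to miR-125a-5p and miR-125a-5p the 5th nearest to miR-99b, while let-7e was at rank 107 for miR-99b and at rank 93 for miR-125a-5p. For miR-99a, let-7c was at rank 63 and miR-125b-5p at rank 30, and for miR-100, let-7a was at rank 81 and miR-125b-5p at rank 40.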

How the data were processed

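MicroRNA Ct values of 3 saline and 3 KA-SE mice were analysed, grouped by their labels, with no library left out of the main comparison. Per the methods, the authors reverse transcribed 800 ng of total RNA per mouse with Megaplex primers and ran 1 TaqMan card. The authors deposited raw Ct (40 where no amplification was called), Ct relative to a reference that the methods name RNU6B, and fold changes of each KA-SE library, which are their own comparison and were not used. Instrument settings: not given in the sources used here. Since the card has no assay named RNU6B, MammU6 was the reference. For the 7 microRNAs the deposited values did not differ from raw Ct by 1 constant per library: the offset ran, for example, from 12.9 to 13.7 cycles in saline replicate 1, where U6 had a Ct of 12.9. For miR-125b-5p the offset was 12.9, 13.8 and 13.4 cycles in saline mice, where U6 had a Ct of 12.9, 13.9 and 13.4. After KA-SE it was 12.3, 13.1 and 12.8 cycles, where U6 had a Ct of 12.8, 13.6 and 13.3. For miR-99a the offset was 13.7, 14.7 and 14.3 cycles in saline mice and 13.0, 13.8 and 13.5 cycles after KA-SE. Set against U6, the offsets of miR-125b-5p, miR-99a and miR-99b thus differed between the groups. Differences between deposited values hold such offsets as well as the raw Ct differences. 0 columns of sample values were left out.

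Levels over U6 were fitted for the 281 microRNAs whose Ct was under 35 in each of the 6 libraries, with limma 3.58.1 in R 4.3.3, without a block, and p-values were adjusted over all 281 (Benjamini-Hochberg). A microRNA was called at a 1.5-fold change or more where the adjusted p was below 0.05. Single values were tested by exact permutation, two-sided. The fit was tested on simulated data. Alternatives were other references, detection limits and tests, the replicate number as a block, and leaving out each library. The text names the 7 microRNAs, the let-7 family, the controls, the tissue markers and, for each of the 7, the 3 tested mouse microRNAs with the smallest SD of the Ct difference. The microRNAs, lists and pairs were chosen with earlier results of these data known. Sequences and gene positions are from RefSeq tables of GRCm38.p6, as no build is named with the Ct tables. The proteome was not analysed here.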

Additional observations from a re-analysis of the deposited data

How the results depend on the processing

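None of the 7 microRNAs was called under any of the 20 alternatives to the fit, with limma adjusted p-values of 0.295 to 0.996. Over all microRNAs 0 were called except with no filter on Ct, where 1 of 375 (miR-296-3p, named after its values were seen) was called. At an unadjusted p under 0.05, limma gave 8 and the methods' t-test 6 of 281. The direction of the small differences depended on the reference. Going from U6 to the global mean, the global median, the snoRNAs or raw Ct moves all 281 log2 fold changes by the same amount. Such changes of sign are therefore not separate results for each microRNA. Relative to the global mean the log2 fold changes were -0.47 for miR-99a, -0.33 for miR-99b, -0.43 for miR-100, -0.56 for miR-125a-5p, -0.27 for miR-125a-3p and -0.13 for miR-125b-3p, and the median of the 7 was -0.43. Relative to the global median they were -0.54, -0.40, -0.50, -0.62, -0.34 and -0.19 in that order, with a median of -0.50, and 1 microRNA, miR-125b-5p, did not overlap, against 79 of 281, or 28.1%. With quantile normalization miR-99a was at -0.012, miR-99b at -0.10, miR-125a-5p at -0.26, miR-125a-3p at -0.60 and miR-125b-3p at -0.27, and the median was -0.26. In the authors' deposited normalized table miR-99a was at -0.45, miR-99b at -0.056 and miR-125a-5p at -0.061, the median was -0.056 and 1 of the 7, miR-125b-5p, did not overlap, against 66 of 281, or 23.5%. Set against U6, the offsets from raw Ct in that table differed between the groups for miR-125b-5p, and for miR-99a and miR-99b as well. There the Ct difference was 0.0057 for miR-99a minus let-7c, -0.070 for let-7c minus miR-125b-5p and 0.232 for miR-99b minus miR-100, and 4 of 15 pairs did not overlap, against 27.9% of all pairs. Over the snoRNAs miR-125a-5p was at -0.0073 and 1 of the 7 did not overlap, and in raw Ct miR-125b-5p was at 0.104. Relative to the global mean with saline replicate 2 left out, miR-99a was at -0.11, miR-100 at -0.16 and miR-125a-5p at -0.028. Why the references and the deposited offsets differed between the groups was not tested.
Leaving out 1 library at a time over U6 gave -0.0038 to 0.514 for miR-99a, -0.053 to 0.420 for miR-100, -0.0625 to 0.287 for miR-125a-5p and -0.182 to 0.114 for miR-125b-5p. Between 0 and 3 of the 7 then did not overlap, 3 without saline replicate 3 (against 52.7% of all), 2 without KA-SE replicate 3 (miR-99b and miR-125b-3p, against 33.5%) and 1 without KA-SE replicate 1 (miR-125a-3p, against 27%). Between 2 and 8 of the 15 pairs did not, against 29.6% to 47.7% of all pairs, with 8 (33.6% of all) without saline replicate 2, 4 (47.7%) without saline replicate 1 and 2 or 3 without each other library. miR-99b minus miR-125a-5p was among them each time, which was fixed in advance, since its ranges were apart with all 6 libraries. Ct differences ran from -0.378 to 0.098 for miR-100 minus let-7a, -0.404 to 0.249 for let-7a minus miR-125b-5p, -0.071 to 0.334 for miR-99a minus miR-99b, -0.094 to 0.253 for miR-99a minus miR-100 and -0.383 to 0.104 for miR-99b minus miR-100. With no change of sign, they ran from -1.05 to -0.322 for miR-99b minus let-7e, 0.0578 to 0.798 for let-7e minus miR-125a-5p, -0.261 to -0.0148 for miR-125a-5p minus miR-125b-5p and 0.0195 to 0.525 for the arms of miR-125a.
Same-numbered saline and KA-SE samples deviated together with correlations of 0.189, 0.236 and 0.0475, so that the numbers were not taken to pair mice, although each sample correlated best with its own number. With the replicate number as a block, 0 microRNAs were called, the median of the 7 stayed at 0.22, and 33 rather than 8 of 281 had an unadjusted p under 0.05. Nothing in the labels says that the mice were treated or dissected independently. The limma p-values set the group difference against the spread within the groups of these 6 samples.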
